A study of Mus musculus with 22 samples.

Results

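Collagen chain genes are the genes that encode the polypeptide chains of the collagens. They were chosen here as every gene on the arrays whose mouse symbol, looked up by Entrez ID, reads Col, a number, the letter a and a number. This gave 41 of the 13392 genes measured. By the structure of the protein, 11 encode fibrillar chains, 7 encode chains of basement membrane collagens, 8 encode chains of network or beaded filament collagens (types VI, VIII and X), and 15 encode other chains, most of them associated with fibrils or spanning the cell membrane. The reference gene table lists 44 such genes, and Col18a1, Col6a6 and Col28a1 were not analysed here.

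Expression was measured on 1 Affymetrix HT MG-430 array per mouse in liver outside the tumours of 22 male C57BL/6J mice. The first group, nintedanib mice, were 10 animals with damaged liver, made by an injection of the carcinogen N-nitrosodiethylamine (DEN) and then weekly carbon tetrachloride (CCl4), which injures hepatocytes, and given nintedanib at 50 mg/kg for 5 weeks. Nintedanib inhibits the receptor kinases of vascular endothelial, platelet-derived and fibroblast growth factors, and it was started once fibrosis was present, per the labels' protocols. The second group, vehicle mice, were 9 animals with the same DEN and CCl4 damage given vehicle for 5 weeks. The last group, control mice, were 3 animals with healthy liver injected with saline and oil and given vehicle. The comparisons therefore ask how collagen transcripts differ between the damaged and the healthy liver, and whether nintedanib shifted them in liver that already had fibrosis.

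Collagens form the bulk of scar tissue. Their chains fold into a long triple helix in the endoplasmic reticulum, are modified there by hydroxylases, are trimmed after secretion and are crosslinked outside the cell. Fibrillar types I, III and V build the fibres of the fibrotic liver, type IV is the network of basement membranes, type VI forms beaded filaments between these, and types such as XIV coat fibril surfaces. In the liver, activated hepatic stellate cells and portal fibroblasts are known as the main sources of fibrillar collagen, and endothelial cells and bile duct cells also make type IV chains.

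Values are log2 expression made by the authors with the robust multiarray average (RMA), so a difference of 1 is a doubling, and levels are compared here between mice for a gene and not between genes. Each mouse is called by its title number. The 3 control mice (4, 49 and 50) have numbers outside the range of the model mice, so a difference in collection or handling cannot be told apart from liver damage. The model mice are numbered from 76 to 94 without a gap, and the labels name no batch. They were split here into runs of numbers, 76 to 82 and 83 to 94, at a boundary taken from earlier results of these data. The first run held 6 of 9 vehicle mice and 1 of 10 nintedanib mice. The arrays of nintedanib mice 89 and 91 stand apart, with median correlations with the other arrays of 0.951 and 0.948 and array medians of 3.05 and 3.09, while the other 20 arrays had medians between 2.83 and 2.96. Precision is limited by how few arrays there are, the 3 of control mice most. The labels name each mouse once, and nothing links mice across groups.

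The damaged liver of vehicle mice had more transcript of the fibrillar chains Col1a2, Col3a1 and Col5a2, the type IV chains Col4a1, Col4a2 and Col4a5, the type VI chains Col6a2 and Col6a3, and Col14a1 than healthy liver. Of the 41 genes, 9 were higher, 1 was lower and 31 did not pass (limma over all genes, Benjamini-Hochberg adjusted p under 0.05). Over all 13392 genes, 2.52% passed in either direction, 1.55% higher and 0.971% lower. The risen genes were 3 of 11 fibrillar, 3 of 7 basement membrane, 2 of 8 network and 1 of 15 other chains. The median difference over the 41 genes was 0.05, beside -0.02 over all genes. In 10 of the 41 genes every vehicle mouse lay above every control mouse, as in 2.49% of all genes, and in no chain did every vehicle mouse lie below, as in 2.27% of all genes. In whole liver, more collagen-making cells and more transcript per cell cannot be told apart.

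Among fibrillar chains, Col1a2, the alpha 2 chain of type I collagen, moved most. Its lowest, median and highest levels were 6.46, 7.08 and 7.56 in nintedanib mice, 6.44, 6.94 and 7.11 in vehicle mice, and 4.65, 4.73 and 5.20 in control mice. All 19 model mice lay above all 3 controls, and the vehicle minus control difference was 1.96 ± 0.19 (SE), a 3.90-fold level, with an adjusted p of 5.0e-07 by limma. Col3a1, the only chain of type III collagen, stood at 6.42, 7.17 and 7.57 in nintedanib mice, 6.59, 7.10 and 7.40 in vehicle mice, and 5.47, 5.60 and 5.78 in control mice. It was 2.58-fold higher in vehicle than in control mice (difference 1.37 ± 0.18, adjusted p 3.6e-05), again with no overlap. Col5a2, a type V chain of the kind that sits in the core of type I fibrils, stood at 4.16, 4.66 and 5.18 in nintedanib mice, 4.16, 4.57 and 4.75 in vehicle mice, and 3.39, 3.44 and 3.64 in control mice. Its rise in vehicle mice was 1.06 ± 0.17 (adjusted p 0.00048), a 2.08-fold level.

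Promoter sequence is shown for the chains that rose most and have an entry in the RefSeq promoter table (GRCm38.p6), because these differed most from healthy liver. Each run is the 250 bases before the annotated start, 5′ to 3′ on the gene's own strand, Col1a2 at chr6:4505368-4505617 (+), Col3a1 at chr1:45311288-45311537 (+) and Col6a3 at chr1:90843972-90844221 (-). Capitals mark matches on either strand to the CCAAT box, the TATA box (letters TATAAA), the GC box (letters GGGCGG) and CAGAC, which is found in elements bound by SMAD factors.
Col1a2: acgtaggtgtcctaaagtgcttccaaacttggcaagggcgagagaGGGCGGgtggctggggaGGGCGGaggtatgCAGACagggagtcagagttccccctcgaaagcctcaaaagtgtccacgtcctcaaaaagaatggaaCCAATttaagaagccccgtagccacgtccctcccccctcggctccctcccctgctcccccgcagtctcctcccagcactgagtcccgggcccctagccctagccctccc
Col3a1: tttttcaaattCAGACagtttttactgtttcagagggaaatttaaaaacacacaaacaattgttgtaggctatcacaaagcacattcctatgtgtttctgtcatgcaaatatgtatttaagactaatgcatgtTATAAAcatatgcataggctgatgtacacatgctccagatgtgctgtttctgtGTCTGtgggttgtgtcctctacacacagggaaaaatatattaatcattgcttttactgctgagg
Col6a3: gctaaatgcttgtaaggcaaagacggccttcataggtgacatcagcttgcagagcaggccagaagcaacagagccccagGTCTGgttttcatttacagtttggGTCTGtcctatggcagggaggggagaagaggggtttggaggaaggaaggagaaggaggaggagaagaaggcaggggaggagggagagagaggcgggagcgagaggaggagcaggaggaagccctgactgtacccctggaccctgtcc
The Col1a2 window held 1 CCAAT match, 2 GC boxes and 1 CAGAC match, the Col3a1 window 1 TATAAA and 2 CAGAC matches, and the Col6a3 window 2 CAGAC matches, none of which overlapped. Of all 32851 windows, 33.8% held CCAAT, 12.4% TATAAA, 32.7% a GC box and 42.2% CAGAC. Windows were found for 7 of the 9 risen genes, of which 4 held CCAAT, 1 TATAAA, 4 a GC box and 5 CAGAC in any of their windows. Of the 32 collagen chain genes with a window, 12 held CCAAT, 5 TATAAA, 19 a GC box and 14 CAGAC. These counts are of genes and the percentages are of windows, so they are not directly comparable. Col5a2 and Col1a1 have no entry.

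The other fibrillar chains differed less or did not pass. Col1a1, the alpha 1 chain of type I collagen, read 2.09, 3.51 and 4.20 in nintedanib mice, 3.01, 3.50 and 4.04 in vehicle mice, and 2.37, 2.73 and 2.83 in control mice. Every vehicle mouse was above every control, yet the difference of 0.86 ± 0.29 did not pass (adjusted p 0.13 by limma). The SD was 0.61 in nintedanib mice, 0.34 in vehicle mice and 0.24 in control mice. All 3 control levels lay below the medians of their arrays, where RMA compresses differences. Why Col1a1 did not pass was not tested. It passed when only vehicle and control mice were fitted (adjusted p 0.023 by limma). In nintedanib mouse 89 Col1a1 was at 2.09, below all controls. Col5a1, the partner chain of Col5a2, had levels of 3.74, 4.06 and 4.43 in nintedanib mice, 3.58, 3.98 and 4.14 in vehicle mice, and 3.55, 3.56 and 3.73 in control mice. Its vehicle minus control difference of 0.35 ± 0.13 did not pass (adjusted p 0.19), and 1 vehicle mouse lay within the controls' range.

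Col27a1, a fibrillar chain best known from cartilage, was the single chain lower in vehicle than in control mice. It stood at 5.27, 5.47 and 6.02 in nintedanib mice, 4.68, 5.25 and 5.49 in vehicle mice, and 5.34, 6.05 and 6.32 in control mice. The difference was -0.72 ± 0.18 (adjusted p 0.029), the groups overlapped, and it did not pass without control mouse 49 (-0.51, adjusted p 0.22) or control mouse 50 (-0.65, adjusted p 0.19). The remaining 5 fibrillar chains, Col2a1, Col5a3, Col11a1, Col11a2 and Col24a1, had differences between -0.14 (Col11a1) and 0.05 (Col2a1). Of these, Col2a1, Col11a1, Col11a2 and Col24a1 lay below the median gene by their mean level.

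**Figure D1:**
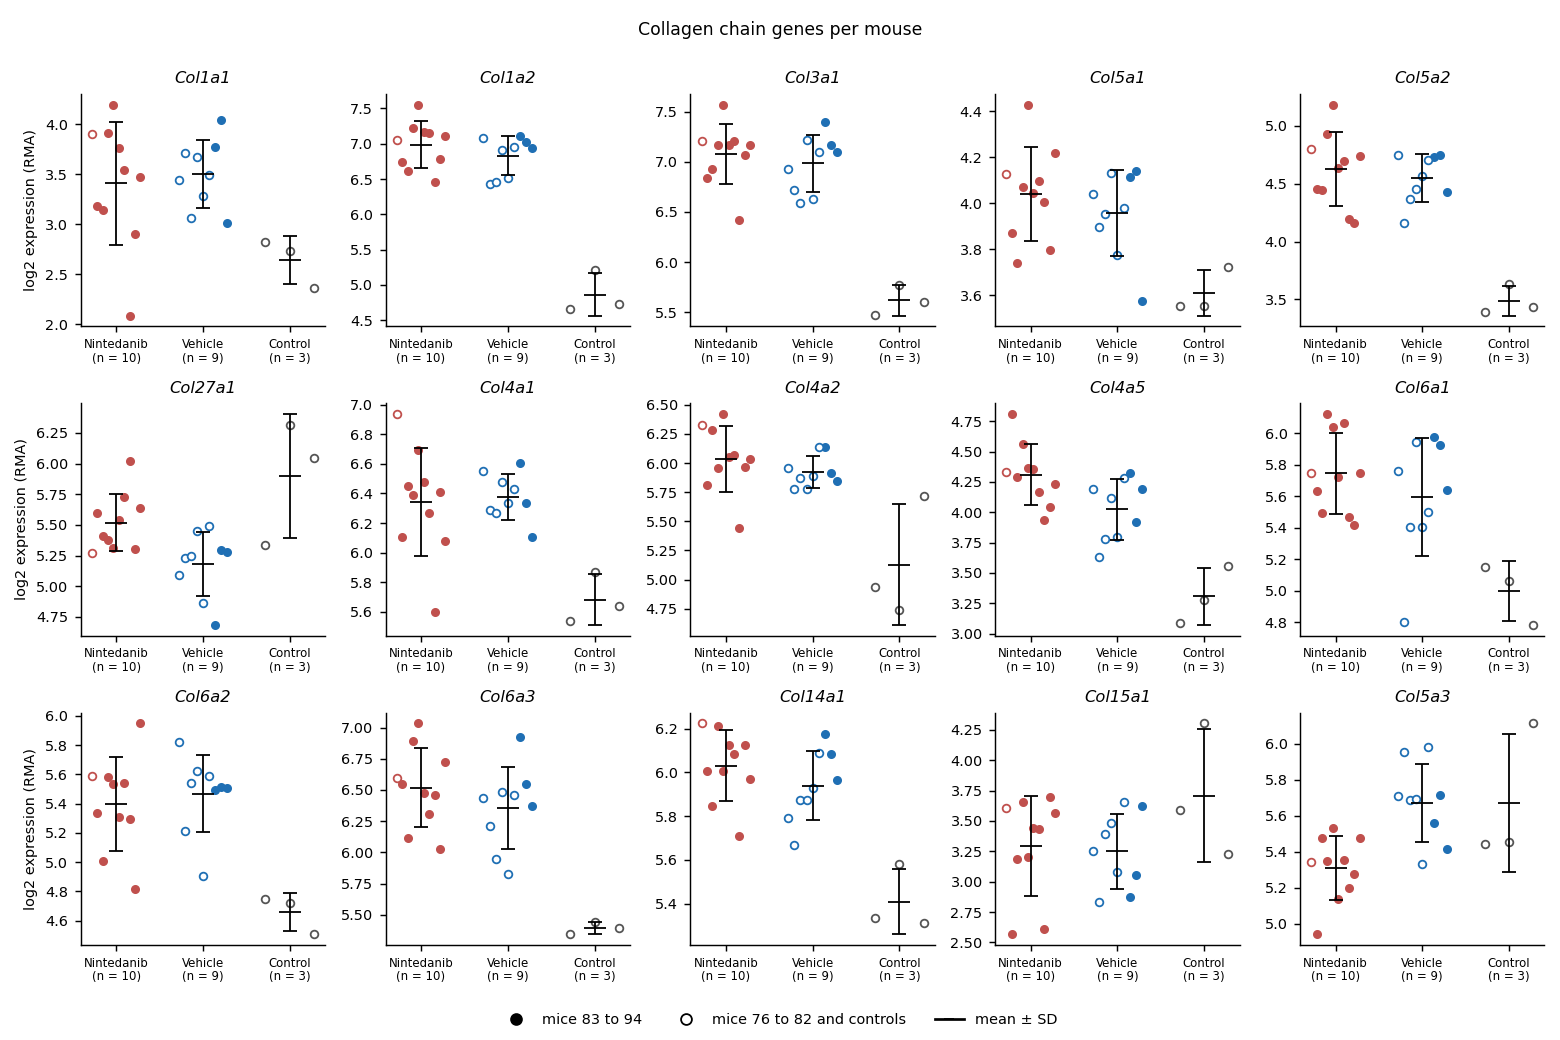
RMA log2 expression (vertical axes, a scale for each gene) of 15 collagen chain genes in each mouse, with nintedanib, vehicle and control mice from left to right. Points are mice, filled for mice 83 to 94 and open for mice 76 to 82 and controls, and bars are the mean and SD. For Col1a2, Col3a1 and Col5a2 all model mice sit above the 3 controls and the model groups overlap, and for Col27a1 the groups overlap.

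Among basement membrane chains, Col4a1 and Col4a2, which join in the common type IV trimer, rose by similar amounts. Col4a1 stood at 5.60, 6.40 and 6.94 in nintedanib mice, 6.11, 6.34 and 6.61 in vehicle mice, and 5.53, 5.64 and 5.87 in control mice. Col4a2 stood at 5.44, 6.04 and 6.42 in nintedanib mice, 5.78, 5.89 and 6.14 in vehicle mice, and 4.74, 4.93 and 5.71 in control mice. In vehicle over control mice Col4a1 was 0.70 ± 0.18 higher (adjusted p 0.030) and Col4a2 0.80 ± 0.17 higher (adjusted p 0.0094), with no overlap of these groups. In nintedanib mouse 89 both chains lay within the controls' range. The 2 genes lie head to head on opposite strands of the same chromosome (RefSeq, GRCm38.p6).

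Col4a5, whose protein joins less widespread type IV trimers, rose too. It read 3.93, 4.31 and 4.81 in nintedanib mice, 3.63, 4.12 and 4.32 in vehicle mice, and 3.09, 3.28 and 3.56 in control mice, and the vehicle minus control difference was 0.72 ± 0.16 (adjusted p 0.012). Its partner Col4a6 averaged 2.88 ± 0.18 in nintedanib mice (SD, n = 10), 2.97 ± 0.19 in vehicle mice (n = 9) and 2.68 ± 0.28 in control mice (n = 3), and did not pass (0.28, adjusted p 0.34 by limma). Col4a3 and Col4a4, the kidney-type partners, differed by -0.02 and -0.06. Col15a1, a chain of the zone around basement membranes, stood at 2.57, 3.43 and 3.70 in nintedanib mice, 2.83, 3.25 and 3.65 in vehicle mice, and 3.23, 3.59 and 4.30 in control mice. The groups overlapped and the difference of -0.46 ± 0.24 did not pass (adjusted p 0.41), nor did it with a control left out, at -0.16 without mouse 49 and -0.70 without mouse 50.

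Type VI collagen assembles from Col6a1, Col6a2 and a longer chain such as Col6a3, and of these chains Col6a2 and Col6a3 passed. Col6a3 stood at 6.03, 6.51 and 7.03 in nintedanib mice, 5.83, 6.44 and 6.92 in vehicle mice, and 5.34, 5.39 and 5.44 in control mice. Its difference of 0.96 ± 0.19 (vehicle minus control, adjusted p 0.0046) was a 1.95-fold level. Col6a2 stood at 4.81, 5.44 and 5.95 in nintedanib mice, 4.90, 5.51 and 5.82 in vehicle mice, and 4.51, 4.72 and 4.74 in control mice, a difference of 0.81 ± 0.18 (adjusted p 0.011). Col6a1 read 5.42, 5.73 and 6.12 in nintedanib mice, 4.80, 5.64 and 5.97 in vehicle mice, and 4.78, 5.06 and 5.15 in control mice. In Col6a1, vehicle mouse 77 alone lay within the controls' range, and the difference of 0.60 ± 0.19 did not pass (adjusted p 0.11). The other 5 network chains differed by -0.17 (Col8a2) to 0.35 (Col6a5) and did not pass.

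Of the 15 other chains only Col14a1 passed. Col14a1, a chain bound to the surface of fibrils, stood at 5.71, 6.05 and 6.22 in nintedanib mice, 5.67, 5.93 and 6.17 in vehicle mice, and 5.31, 5.33 and 5.58 in control mice. It was 0.53 ± 0.12 higher in vehicle than in control mice (adjusted p 0.011), with no overlap. The 14 others lay between -0.36 (Col20a1, adjusted p 0.12) and 0.36 (Col7a1, the anchoring fibril chain, adjusted p 0.58). By their mean level, 20 of the 41 genes lay above the median gene and 21 below, and all 10 that passed were in the brighter set.

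With 2 controls in place of 3 the count of chains that passed was lower: 6 without control mouse 4, 7 without control mouse 49 and 6 without control mouse 50. Col1a2, Col3a1, Col5a2 and Col6a3 passed in each of these. The share of all genes that passed in these fits is not given here, so the lower counts cannot be called particular to collagen chains. Without mouse 4, Col14a1 (0.49, adjusted p 0.090), Col4a1 (0.62, 0.18), Col4a2 (0.70, 0.10) and Col4a5 (0.61, 0.13) did not pass. Without mouse 49, Col4a2 (0.60, adjusted p 0.11), Col4a5 (0.70, 0.051) and Col27a1 did not pass, and without mouse 50 the same held for Col14a1 (0.48, adjusted p 0.10), Col4a1 (0.68, 0.15) and Col6a2 (0.73, 0.11), and for Col27a1. With arrays centred on their medians Col4a1 did not pass (0.72, adjusted p 0.057), and with only vehicle and control mice fitted Col27a1 did not (adjusted p 0.057).

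**Figure D2:**
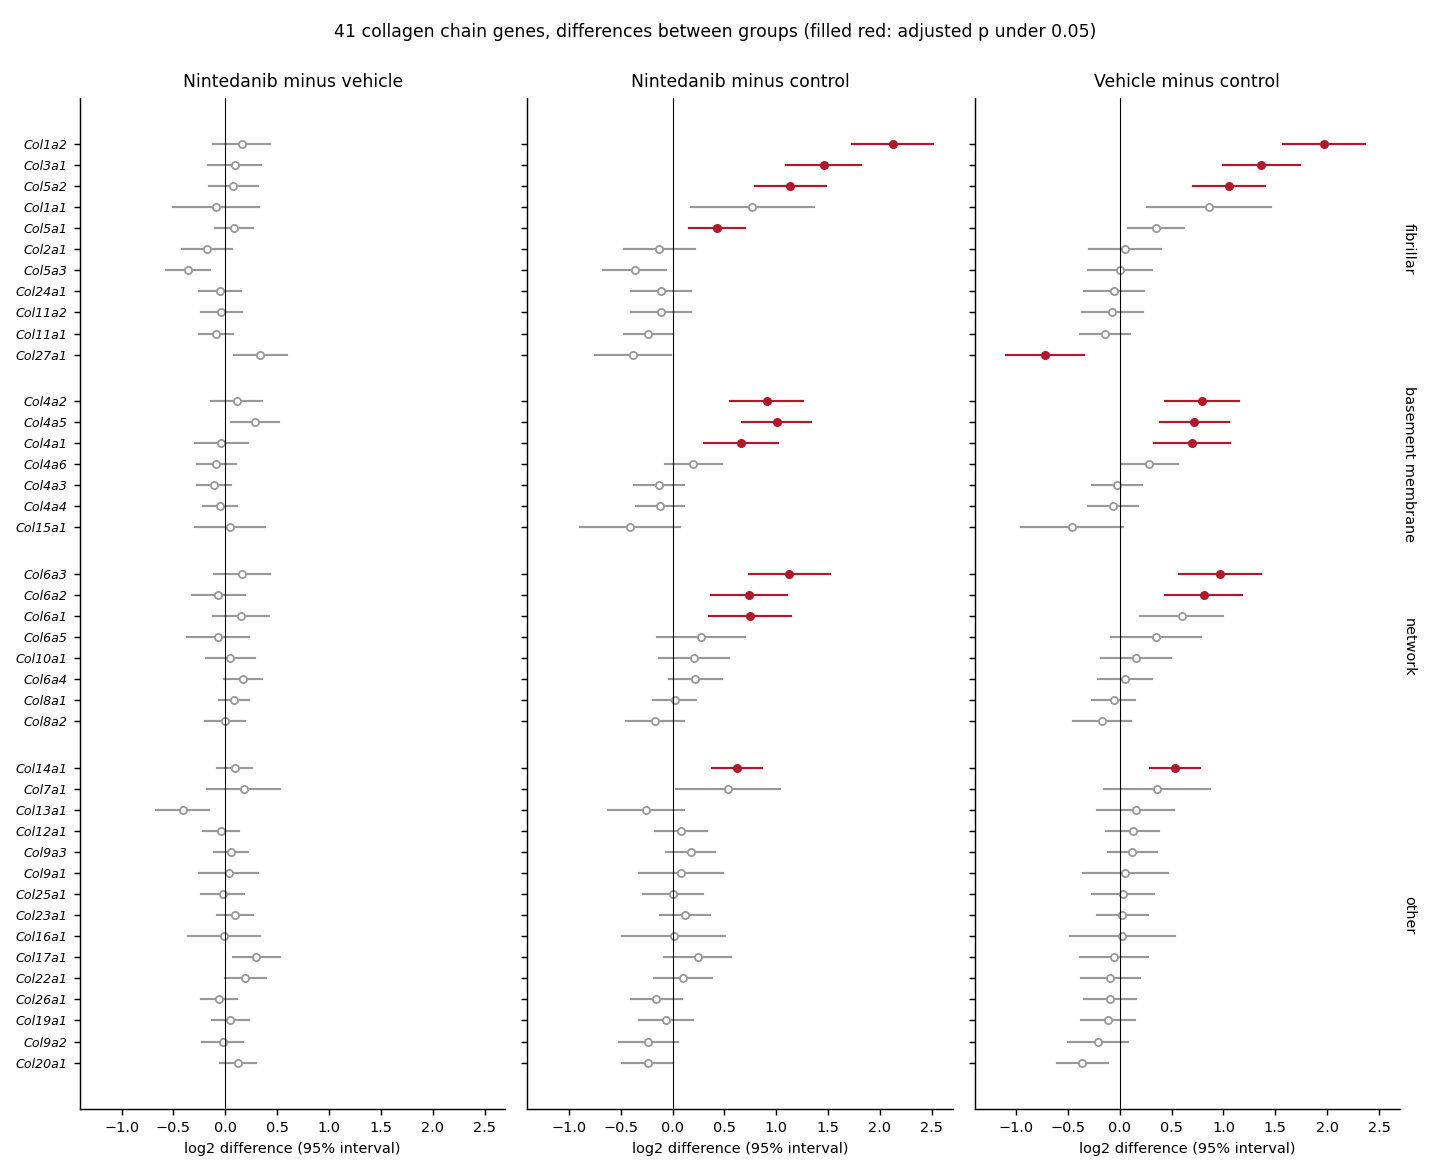
Log2 differences (horizontal axes, points) with 95% intervals (lines) for all 41 collagen chain genes by class, for nintedanib minus vehicle, nintedanib minus control and vehicle minus control, red where the adjusted p is under 0.05. Against control mice 11 chains pass in nintedanib mice and 10 in vehicle mice, and between nintedanib and vehicle mice none passes.

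The question put by the treatment was whether nintedanib lowered collagen transcripts in liver that was already fibrotic. None of the 41 genes passed between nintedanib and vehicle mice by limma, where 0.687% of all genes did. At an unadjusted p under 0.05 there were 5 of 41, or 12.2%, beside 10.6% of all genes. The median difference was 0.05, beside 0.01 over all genes, and the groups overlapped in each of the 41 genes, where 0.0523% of all genes lay wholly higher in nintedanib mice and 0.0149% wholly lower. The 9 chains that were higher in vehicle than in control mice had nintedanib minus vehicle differences between -0.07 (Col6a2) and 0.28 (Col4a5), 7 of them above 0. Their 95% intervals ran from -0.33 at the lowest to 0.51 at the highest, and the smallest adjusted p among them was 0.32. Within mice 83 to 94 alone they ran from -0.16 (Col3a1) to 0.16 (Col4a5), with only Col4a2 and Col4a5 above 0. These chains were picked through the same vehicle mice and tended to move together over mice. Their values and signs are therefore a description and not separate tests. A fall of the size by which Col1a2 or Col3a1 was raised in vehicle over control mice lies outside their intervals, which were -0.11 to 0.43 for Col1a2 and -0.16 to 0.34 for Col3a1.

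The 5 chains with an unadjusted p under 0.05 in this comparison are named here after their values were seen, and among them only Col4a5 had been higher in vehicle than in control mice. Col5a3, another type V chain, stood at 4.94, 5.34 and 5.53 in nintedanib mice, 5.33, 5.69 and 5.98 in vehicle mice, and 5.44, 5.46 and 6.11 in control mice. Its difference of -0.36 ± 0.10 from vehicle mice did not pass (adjusted p 0.10). Col13a1, a chain that spans the cell membrane, stood at 3.72, 4.51 and 5.00 in nintedanib mice, 4.63, 4.95 and 5.11 in vehicle mice, and 4.64, 4.74 and 4.93 in control mice, a difference of -0.41 ± 0.12 (adjusted p 0.13). Col27a1 differed by 0.34 ± 0.13 (adjusted p 0.27), Col4a5 by 0.28 ± 0.11 (0.32) and Col17a1, a membrane-spanning chain of hemidesmosomes, by 0.30 ± 0.11 (0.26). Within mice 83 to 94 alone Col13a1 differed by -0.19 ± 0.21, Col4a5 by 0.16 ± 0.16, Col5a3 by -0.26 ± 0.13, Col27a1 by 0.46 ± 0.17 and Col17a1 by 0.34 ± 0.17, with adjusted p of 0.94 to 0.96 by limma.

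The run of title numbers moves with treatment, so both were fitted together. With the run as a covariate no chain passed, and the differences were 0.05 for Col1a2, -0.03 for Col3a1 and 0.06 for Col5a2. Within mice 83 to 94 (9 nintedanib and 3 vehicle mice) no chain passed either, and Col1a2 differed by -0.05 ± 0.19, Col3a1 by -0.16 ± 0.18 and Col6a3 by -0.10 ± 0.20. The share of all genes that passed in these fits is not given here. Col27a1, at an unadjusted p of 0.014 within mice 83 to 94, had an adjusted p of 0.94 by limma. That no chain passed in these fits is therefore not a result particular to collagen chains. Without mice 89 and 91 the differences were 0.21 for Col1a2, 0.16 for Col3a1 and 0.12 for Col5a2, and none passed. Vehicle mice 92 to 94 and vehicle mice 76 to 81 gave no chain that passed and none at an unadjusted p under 0.05 (limma, where 1.11% and 8.12% of all genes did). Col6a3 had the highest difference between these runs, 0.39 ± 0.20, and Col9a1 the lowest, -0.41. Against controls, vehicle mice 76 to 81 alone gave 9 chains, without Col27a1 (-0.67, adjusted p 0.071), where 2.37% of all genes passed. Vehicle mice 92 to 94 alone gave 10, without Col4a1 (0.67, adjusted p 0.066) and with Col6a1 (0.85, adjusted p 0.037, against 0.47 and 0.27 with vehicle mice 76 to 81), where 3.41% of all genes passed.

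Set against healthy liver, the nintedanib mice had 11 chains higher, none lower and 30 not passed, with 5.85% of all genes passing in either direction, 2.87% higher and 2.99% lower. This comparison shares its control mice with the one of vehicle mice and its nintedanib mice with the treatment comparison. The 11 were 4 of 11 fibrillar, 3 of 7 basement membrane, 3 of 8 network and 1 of 15 other chains, and the median over the 41 genes was 0.10, beside -0.0025 over all genes. In 9 genes all nintedanib mice lay above all controls, as in 2.47% of all genes, and in none did they all lie below, as in 2.44%. Nintedanib minus control and vehicle minus control differences stood at 2.12 and 1.96 for Col1a2, 1.46 and 1.37 for Col3a1, 1.13 and 1.06 for Col5a2, and 1.13 and 0.96 for Col6a3. For Col4a5 they were 1.003 and 0.718, for Col4a2 0.91 and 0.80, for Col4a1 0.66 and 0.70, for Col6a2 0.74 and 0.81, and for Col14a1 0.62 and 0.53. All 9 of these passed in both comparisons.

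Another pair of chains, Col6a1 and Col5a1, passed in nintedanib mice and did not pass in vehicle mice, and their nintedanib minus vehicle differences of 0.15 and 0.08 did not pass (adjusted p 0.78 and 0.83). Col6a1 was 0.75 ± 0.19 higher than in controls (adjusted p 0.017) and Col5a1 0.43 ± 0.13 higher (adjusted p 0.049). Col5a1 did not pass without control mouse 4 (0.40, adjusted p 0.20), 49 (0.40, 0.17) or 50 (0.49, 0.097). Col6a1 did not pass without mouse 49 (0.78, adjusted p 0.051) or mouse 50 (0.64, 0.15). Col4a1 lost its call without mouse 4 (0.59, adjusted p 0.15) or mouse 50 (0.64, 0.11), and Col6a2 without mouse 50 (0.66, 0.099). Col27a1, the chain lower in vehicle mice, stood at -0.38 ± 0.18 in nintedanib minus control mice (adjusted p 0.28), and Col1a1 at 0.77 ± 0.29 (0.13), or 0.93 without mice 89 and 91 (adjusted p 0.016).

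The same mice tended to be high or low for several chains. Over the 9 risen chains, nintedanib mouse 86 was the highest of its group in 5, nintedanib mouse 89 the lowest in 6 and mouse 90 the lowest in the other 3. Among vehicle mice, mouse 92 was the highest in 6 and mouse 77 the lowest in 5, and among controls mouse 49 was the highest in 6 and mouse 4 the lowest in 6. The mean of the 9 chains per mouse ran from 5.50 to 6.26 in nintedanib mice, 5.57 to 6.10 in vehicle mice and 4.72 to 4.92 in control mice.

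Chains that share a trimer or a fibril were then compared over the 19 model mice, by Pearson's r and Spearman's rho with permutation p-values adjusted over 10 pairs. Of these, 7 pairs passed. The share of other gene pairs that correlate over these mice was not computed, so the count cannot be called particular to partner chains. Col4a1 and Col4a2 had r = 0.79 and rho = 0.62 (adjusted permutation p 0.0010 for r and 0.010 for rho), Col1a1 and Col3a1 r = 0.735 and rho = 0.75 (0.0010 and 0.0019), and Col1a1 and Col1a2 r = 0.68 and rho = 0.67 (0.0023 and 0.0058). Col5a1 and Col5a2 had r = 0.68 and rho = 0.71 (0.0023 and 0.0030), Col6a1 and Col6a3 r = 0.67 and rho = 0.73 (0.0023 and 0.0019), and Col6a1 and Col6a2 r = 0.52 and rho = 0.59 (0.034 and 0.015). Col1a1 and Col4a1, of different collagens, also correlated, with r = 0.74 and rho = 0.55 (0.0023 and 0.025). Col4a3 with Col4a4 (r = 0.155), Col4a5 with Col4a6 (r = -0.02) and Col8a1 with Col8a2 (r = 0.375) did not pass.

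Fewer pairs passed without mice at the ends. Leaving such mice out also narrows the range of the first gene and leaves 17 mice. Whether the relations rest on such mice was not tested. Without mice 89 and 91 instead, 7 pairs passed by r and 6 by rho. Without the 2 mice farthest from the median of the first gene, Col6a1 and Col6a3 alone passed by r (r = 0.72, adjusted permutation p 0.011), and the other 6 pairs had r between 0.45 and 0.59. By rho, 3 pairs passed then, Col1a1 with Col3a1 (0.65), Col5a1 with Col5a2 (0.645) and Col6a1 with Col6a3 (0.66), each with an adjusted permutation p of 0.022. The mice left out were 86 and 89 for the pairs with Col1a1, 82 and 89 for Col4a1 with Col4a2, and 86 and 94 for Col5a1 with Col5a2. Within mice 83 to 94 (n = 12) the same 7 pairs passed by r, with r between 0.65 and 0.88, and by rho Col1a1 with Col4a1 did not (rho = 0.57, adjusted permutation p 0.086). Within mice 76 to 82 (n = 7) they had r between 0.38 and 0.80 and did not pass by r, while Col6a1 with Col6a2 passed by rho (0.93, adjusted exact permutation p 0.034). Col8a1 with Col8a2 passed there by both (r = 0.90 and rho = 0.96, adjusted exact permutation p 0.022 and 0.028).

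**Figure D3:**
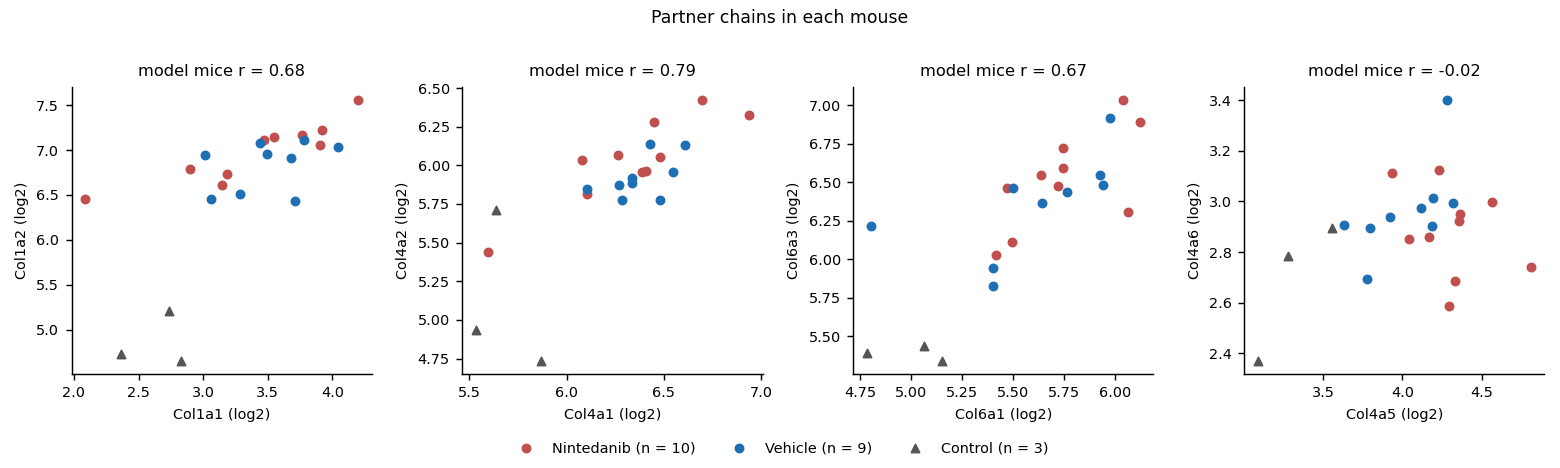
Levels of partner chains in each mouse (both axes RMA log2), with nintedanib, vehicle and control mice as red circles, blue circles and grey triangles. Over the 19 model mice r is 0.68 for Col1a1 and Col1a2, 0.79 for Col4a1 and Col4a2, 0.67 for Col6a1 and Col6a3 and -0.02 for Col4a5 and Col4a6.

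Partners did not always change by the same amount between vehicle and control mice. The change of Col1a1 was smaller than that of Col1a2 by 1.10, the change of Col5a1 smaller than that of Col5a2 by 0.71, and the change of Col4a5 larger than that of Col4a6 by 0.43. Each had an exact 2-sided permutation p of 0.0046, the smallest that 9 against 3 mice can give, and 0.015 adjusted over the 10 pairs. The other 7 pairs did not pass, among them Col4a1 with Col4a2 (-0.10, adjusted 0.64) and Col6a1 with Col6a2 (-0.21, adjusted 0.47). With vehicle mice 76 to 81 alone the adjusted p of the 3 pairs was 0.060, 0.060 and 0.079 by the exact test, and with 2 controls it lay between 0.061 and 0.12, where the smallest unadjusted p these designs can give is 0.012 and 0.018. RMA compresses differences near background, and the level of the lesser-changed chain in control mice was 2.64 for Col1a1, 3.61 for Col5a1 and 2.68 for Col4a6. Their partners stood at 4.86 for Col1a2, 3.49 for Col5a2 and 3.31 for Col4a5 in control mice. Levels are not compared between genes here, so these values do not rank the chains of a pair. Unequal change in transcript was not tested apart from this compression.

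Genes that fold, process and bind collagen were taken from lists of 26, 14 and 16 genes. Of 17 measured folding and modification genes 1 was higher in vehicle than in control mice and none lower (median difference 0.13). Over all genes 1.55% were higher and 0.971% lower. Crtap, a part of the prolyl 3-hydroxylase complex, averaged 5.66 ± 0.56 in nintedanib mice (SD, n = 10), 5.81 ± 0.22 in vehicle mice (n = 9) and 4.33 ± 1.05 in control mice (n = 3). It rose by 1.48 ± 0.32 in vehicle mice (SE, adjusted p 0.0094 by limma), while control mouse 49, at 5.54, lay within the vehicle range. Without control mouse 4 it did not pass (1.25, adjusted p 0.11), nor without mouse 50 (1.10, 0.17). Serpinh1, the collagen chaperone HSP47, differed by 0.47 and did not pass (adjusted p 0.13). Neither did P4ha3, a prolyl 4-hydroxylase subunit (-0.59, adjusted p 0.094), Mia2, an export factor of the endoplasmic reticulum (-0.42, 0.098), Fkbp14, a prolyl isomerase of the same compartment (-0.45, 0.23), or Creb3l1, a transcription factor of secretory cells (0.46). With a control left out these moved: P4ha3 passed without mouse 4 (-0.90, adjusted p 0.012 by limma), and Fkbp14 ran from -0.67 to -0.20 and Creb3l1 from 0.30 to 0.55 and did not pass.

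Of 12 measured processing and crosslinking genes 1 was higher, and none lower (median 0.11), beside 1.55% and 0.971% of all genes. Loxl1, a lysyl oxidase that crosslinks collagen and elastin, averaged 3.37 ± 0.19 in nintedanib mice (SD, n = 10), 3.46 ± 0.21 in vehicle mice (n = 9) and 2.95 ± 0.15 in control mice (n = 3), a rise of 0.50 ± 0.13 in vehicle mice (adjusted p 0.042 by limma). It did not pass without control mouse 4 (0.50, adjusted p 0.16) or mouse 50 (0.43, 0.25). Adamts2, the protease that removes the amino-terminal propeptide of fibrillar collagens, differed by 0.35 (adjusted p 0.12). The lysyl oxidases Loxl2, Loxl3 and Loxl4 differed by 0.39, 0.31 and -0.51, and Pcolce, which enhances removal of the carboxy-terminal propeptide, by 0.23, and none of these passed. Loxl4 passed with vehicle mice 92 to 94 alone (-0.67, adjusted p 0.035 by limma).

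Of 14 measured receptors and uptake genes 3 were higher and none lower (median 0.20), beside 1.55% and 0.971% of all genes. Sparc, a collagen-binding matrix protein, averaged 7.97 ± 0.20 in nintedanib mice (SD, n = 10), 7.99 ± 0.15 in vehicle mice (n = 9) and 7.26 ± 0.26 in control mice (n = 3). Its rise of 0.74 ± 0.13 in vehicle mice had an adjusted p of 0.0020 by limma, and the groups did not overlap. Ddr2, a receptor kinase for fibrillar collagen, rose by 0.43 ± 0.12 (adjusted p 0.042) and Lair1, an inhibitory collagen receptor of immune cells, by 0.42 ± 0.11 (adjusted p 0.048). Ddr2 did not pass without control mouse 4 (0.41, adjusted p 0.18) or 50 (0.35, 0.28), and Lair1 did not without mouse 4 (0.38, 0.22), 49 (0.38, 0.16) or 50 (0.49, 0.077). Cd44 differed by 0.71 (adjusted p 0.087), Ctsk, the collagen-degrading cathepsin K, by 0.48, and Gp6, the platelet collagen receptor, by -0.40, and did not pass. With a control left out Ctsk ran from 0.16 to 0.67 and did not pass, and Gp6 ran from -0.56 to -0.20 and passed without mouse 49 (adjusted p 0.027 by limma). Cd44 passed with vehicle mice 76 to 81 alone (0.91, adjusted p 0.014) and stood at 0.32 with vehicle mice 92 to 94.

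In none of the 3 lists did a gene pass between nintedanib and vehicle mice, where 0.687% of all genes did. In lists this short none passing is near that share. In nintedanib against control mice 2.87% of all genes were higher and 2.99% lower. Against controls, nintedanib mice had Crtap higher by 1.33 ± 0.32 (adjusted p 0.011), Adamts2 by 0.52 ± 0.12 (0.0070), Sparc by 0.72 ± 0.13 (0.0011) and Ddr2 by 0.40 ± 0.11 (0.034), while Fkbp14 fell by 0.62 (0.040). Without control mouse 50, Crtap (0.95, adjusted p 0.17), Ddr2 (0.33, 0.24) and Fkbp14 (-0.37, 0.41) did not pass, without mouse 4 Crtap (1.10, 0.12), Adamts2 (0.46, 0.074) and Ddr2 (0.38, 0.16) did not, and without mouse 49 Fkbp14 (-0.64, 0.10) did not. Loxl1 was 0.41 higher (adjusted p 0.070) and Lair1 0.24 higher (0.27), and their nintedanib minus vehicle differences of -0.09 and -0.18 did not pass (0.82 and 0.41).

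**Figure D4:**
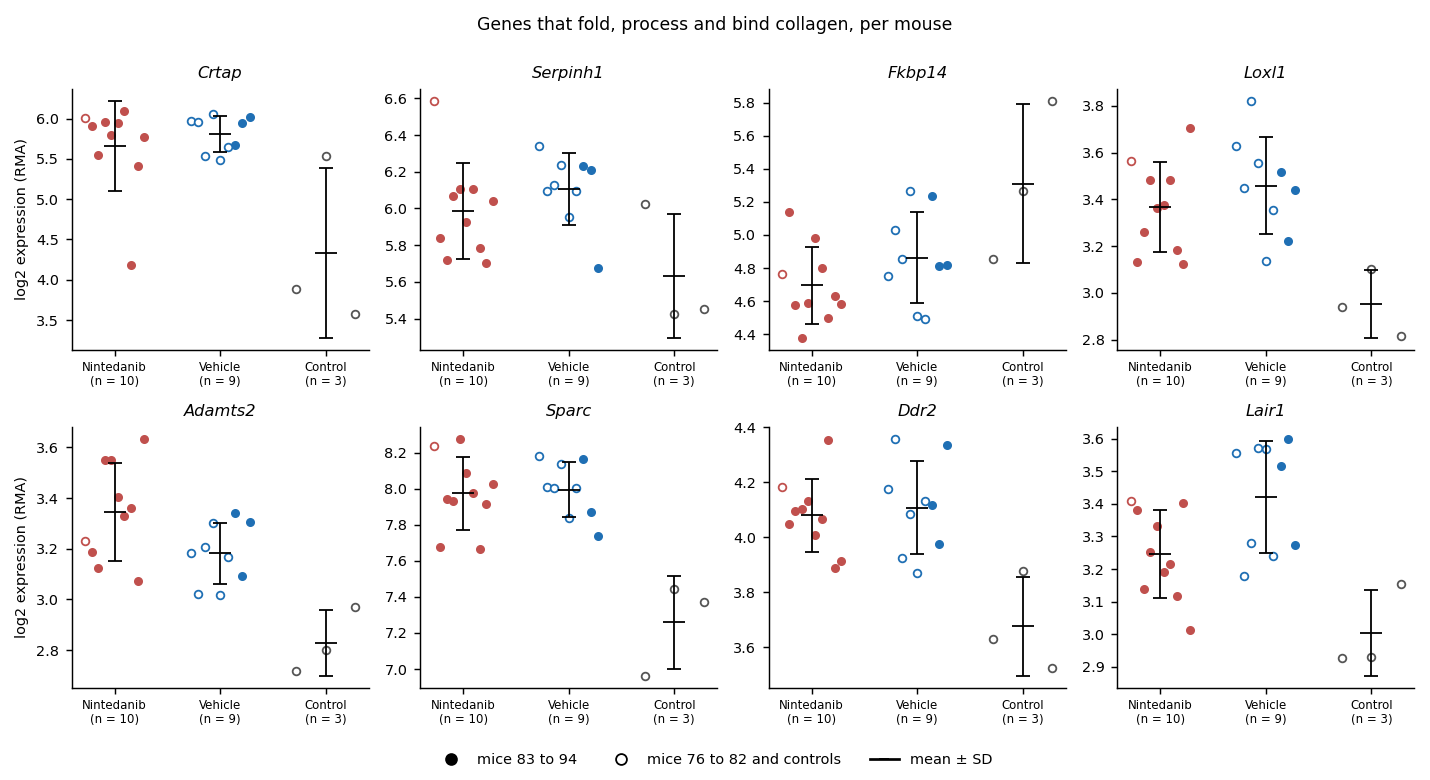
RMA log2 expression (vertical axes, a scale for each gene) of 8 genes that fold, process or bind collagen in each mouse, with nintedanib, vehicle and control mice from left to right. Filled points are mice 83 to 94, open points mice 76 to 82 and controls, and bars the mean and SD. Sparc separates the model mice from the controls, while Crtap is at 5.54 in control mouse 49 and at 4.18 in nintedanib mouse 89.

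Some markers of the cells that make or surround collagen also differed between vehicle and control mice, where 1.55% of all genes were higher and 0.971% lower. Of 16 stellate cell and fibroblast markers measured, 4 (Lum, Vim, Cygb and Rgs5) were higher in vehicle mice, none was lower and 12 did not pass. Differences were above 0 in 13 and below 0 in 3, the lowest -0.43. The mean level of the list ran from 5.13 to 5.45 in nintedanib mice, 5.03 to 5.36 in vehicle mice and 4.87 to 4.98 in control mice. Of 11 macrophage markers 3 were higher, with mean levels of 4.92 to 5.71 in nintedanib mice, 4.90 to 5.88 in vehicle mice and 4.28 to 4.56 in control mice. Of 11 endothelial markers 2 were higher, with mean levels of 4.58 to 4.88 in nintedanib mice, 4.87 to 5.18 in vehicle mice and 4.53 to 4.75 in control mice. Of 10 bile duct markers 1 was higher (Prom1), with mean levels of 3.77 to 4.29 in nintedanib mice, 3.62 to 4.29 in vehicle mice and 3.59 to 3.78 in control mice. Of 11 lymphocyte markers 2 were higher, with mean levels of 2.90 to 3.45 in nintedanib mice, 3.03 to 3.45 in vehicle mice and 2.78 to 3.00 in control mice, and of 8 mesothelial markers none passed. Between nintedanib and vehicle mice the stellate and fibroblast list had none of 16 that passed, while Cldn5 of the endothelial list (-0.61, adjusted p 0.032) and Jchain of the lymphocyte list (-0.73, 0.047) were lower. Only 2 of 15 hepatocyte markers, Pck1 and Tat, had a value. Their mean level ran from 10.08 to 10.55 in nintedanib mice, 9.94 to 10.43 in vehicle mice and 9.78 to 10.25 in control mice, and neither passed in vehicle against control mice. Against controls, nintedanib mice had 5 stellate and fibroblast markers higher and 1 lower, and 2 bile duct markers higher and 1 lower. Macrophage markers had 4 higher, endothelial and hepatocyte markers 1 each, and lymphocyte and mesothelial markers none, with none lower in these lists. Of all genes, 2.87% were higher and 2.99% lower in that comparison. The part of these cell types in the collagen differences was not tested.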

How the data were processed

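RNA from liver outside the tumours was put on 1 Affymetrix HT MG-430 array per mouse, per the labels' protocols. The log2 expression values were deposited after the authors ran RMA with custom probe sets that gather the probes of an Entrez gene, per the series' design text. RMA sets the distributions of the arrays alike and compresses differences near background. Which software made them is not stated in the labels.

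Symbols were matched by Entrez ID to RefSeq genes of GRCm38.p6, which named 13242 of 13392 genes, leaving 150 unnamed. No array and no gene was left out. Groups came from the treatment and liver damage labels. The main model was 3 group means over all 22 arrays in limma (version 3.58.1, R 4.3.3, lmFit then eBayes, 19 residual degrees of freedom), with 2-sided p-values adjusted by Benjamini-Hochberg over all 13392 genes and a threshold of 0.05. Intervals are 95% intervals of that fit. The vehicle runs were compared in a fit with the model groups split by title number. Pair correlations used 100000 permutations and differences of change the exact permutation test (scipy 1.17.1), each adjusted over 10 pairs. The fits were tested on simulated data with known changes.

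The genes, classes, lists, pairs and runs were chosen with earlier results of these data known. The genes given in full are those that passed in a comparison, with Col1a1, Col15a1 and up to 6 genes of each list by smallest p. The alternatives left out the dimmest 25% of genes, centred the arrays, repeated the quantile step, let the variance follow a trend with robust fitting, weighted the arrays, fitted only the 2 groups compared, used a threshold of 0.01, kept 1 run, and left out mice 89 and 91 or single mice. Leaving out mice 89 and 91 for the pairs, and all alternatives for the differences of change, were added after seeing the data.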

Additional observations from a re-analysis of the deposited data

Results flagged for a closer look

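In 12 of 118 groups tested, the highest or lowest mouse lay apart from the rest of its group by Dixon's criterion at the 95% level, which chance passes in about 1 in 20 groups. Of these, 4 were in nintedanib mouse 89, whose array stands apart: Col10a1 at 2.82, Col19a1 at 2.55 and Col9a1 at 3.55 were the highest of the nintedanib mice, with the next mouse at 2.43, 2.28 and 2.91, and Crtap at 4.18 was the lowest, with the next mouse at 5.41. Other nintedanib mice gave 4: Col12a1 was highest at 3.23 in mouse 83 (next 2.85), P4ha3 at 3.25 in mouse 90 (next 2.63) and Serpinh1 at 6.59 in mouse 82 (next 6.11), and Gp6 was lowest at 1.71 in mouse 84. Vehicle mice gave 4: Col10a1 was highest at 2.92 in mouse 78 (next 2.35), Col4a6 at 3.40 in mouse 81 (next 3.01) and Cd44 at 6.55 in mouse 80 (next 5.76), and Col6a1 was lowest at 4.80 in mouse 77 (next 5.40).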

How the results depend on the processing

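In vehicle against control mice 10 chains passed, and 5 at an adjusted p under 0.01 or 6 to 7 with a control left out. In nintedanib against control mice 11 passed, and 7 at 0.01 or 7 to 9 with a control left out. A stricter threshold cannot raise a count, by construction. Leaving out a control leaves fewer samples and also moved the differences, and the part of each in the lower counts was not tested. In the other alternatives these counts were 9 to 10 and 9 to 11, and in nintedanib against vehicle mice, and between the vehicle runs, 0 in all. The share of all genes that passed is not set beside these counts for each alternative. Neither the lower counts nor the counts of 0 can therefore be called particular to collagen chains. Of 10 pairs, 7 correlated by r, and 1 within mice 76 to 82 and 1 without the 2 farthest mice (2 and 3 by rho).

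Some nintedanib minus vehicle differences, none of which passed, changed sign. Within mice 83 to 94 Col14a1 was at -0.066, Col1a2 -0.051, Col3a1 -0.164, Col5a2 -0.034, Col6a1 -0.103 and Col6a3 -0.104. With the run as covariate Col3a1 was at -0.025 and Col4a1 0.096. With array weights Col1a1 was at 0.022 and Col4a1 0.038, and without mice 89 and 91 Col1a1 was at 0.069 and Col4a1 0.089. With a mouse left out Col1a1 ran from -0.177 to 0.058, Col4a1 from -0.103 to 0.046 and Col15a1 from -0.0067 to 0.127. Between partners, the vehicle minus control difference of change ran from -0.41 to 0.19 for Col4a1 and Col4a2 (0.19 without control mouse 49) and from -0.039 to 0.157 for Col4a3 and Col4a4 (-0.039 without control mouse 4). The cause was not tested.

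No paired analysis was possible because the groups share no replicate numbers. Signal over background is not given, and 21 chains lay below the median gene. RMA compresses differences near background, and whether this lowered the differences of those chains was not tested. The 3 control mice limit each comparison with healthy liver.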
